A study of Mus musculus with 23 samples.

Results

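The response of Spp1 knockout (KO) retinal microglia to raised intraocular pressure (IOP) was described by comparing 4 libraries taken 4 weeks after IOP elevation (KO IOP) with 4 libraries from naïve KO retinas (KO naïve), 8 of the 23 libraries of the series. A gene entered if it reached a normalized count of 10 in 3 or more of the 8, which kept 15935 of the 35825 genes in the table, on the scale log2(normalized count + 1). All mice of both groups were Spp1KO/Cx3Cr1-GFP: they carried a global deletion of Spp1, made by targeting in the germ line, and the CX3CR1-GFP allele, in which green fluorescent protein replaces coding sequence of Cx3cr1, so that GFP-positive live single cells could be sorted from the retina. KO naïve mice are labelled as untreated (the study's methods mention saline injection for microbead controls, and whether these mice received it is not stated), and KO IOP mice received an injection of microbeads into the anterior chamber. The wild-type (WT) groups used for comparison carried Cx3Cr1-GFP without the Spp1 deletion and numbered 4 naïve and 4 IOP libraries. The study's methods describe heterozygous CX3CR1-GFP animals, retinas of several mice pooled before sorting, and both sexes. The labels give neither the mice per pool nor their age or sex, so p-values measure the spread between pools.

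Microglia are the resident phagocytes of the retina. They survey the tissue under control of CX3CL1, TGF-β and CSF1 signals, and after neuronal injury they lower surveillance genes and raise genes of lysosomes, lipid handling, antigen presentation and chemokines. Raised IOP damages the axons of retinal ganglion cells, and SPP1 (osteopontin) is a secreted glycoprotein that binds CD44 and αv integrins on microglia and other cells.

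The libraries did not form 2 uniform groups. The 16-gene microglia list, which leaves out Cx3cr1, summed to 1.92, 2.28, 5.48 and 2.46% in KO naïve 1 to 4 and 5.59, 5.16, 5.93 and 5.06% in KO IOP 1 to 4. KO naïve 3 therefore sat at the level of the KO IOP libraries, and KO naïve 1, 2 and 4 lay below every WT naïve library (lowest 4.32%). The mean share was 1.79 times as high in KO IOP, with overlapping groups (exact two-sided permutation test, p = 0.086, 0.17 after Benjamini-Hochberg adjustment over 18 lists). The 20-gene rod photoreceptor list moved the other way, with 3.80, 4.12, 1.43 and 4.55% in KO naïve 1 to 4 and 1.87, 1.58, 1.06 and 1.51% in KO IOP 1 to 4. Transcripts of rods thus remained in every sorted library and took the least in KO IOP and KO naïve 3. Across all genes tested, KO naïve 3 correlated with the 4 KO IOP libraries at r of 0.883 to 0.907 and with the other 3 KO naïve libraries at 0.853 to 0.887, given as a description since every pair shares one library. In bulk RNA, fewer cells of a type and less RNA per cell cannot be told apart.

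**Figure D1:**
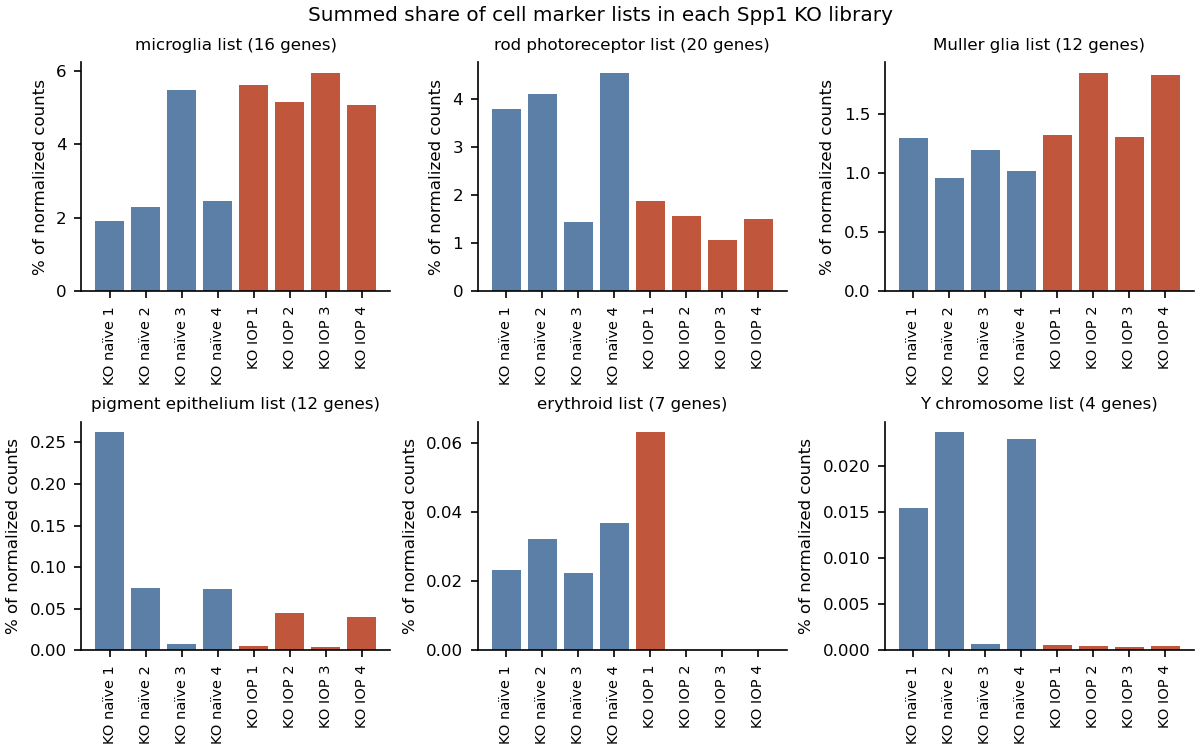
Summed share of 6 marker lists in each library, as percent of all normalized counts (y axis), with 1 bar per library and KO naïve in blue and KO IOP in red. KO naïve 3 has the microglia share of the KO IOP libraries (5.48% against 5.06 to 5.93%). The Y chromosome list splits the libraries in the same way as the microglia list, and the erythroid list splits them in another way.

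The Y-linked list split the libraries as the microglia and rod lists did, and other lists split them differently. The 4 Y-linked genes took 0.0155, 0.0236, 0.000701 and 0.0229% in KO naïve 1 to 4 and 0.000636, 0.000437, 0.000367 and 0.000447% in KO IOP 1 to 4, so that KO naïve 1, 2 and 4 stood apart from the other 5 libraries. The labels do not give the sex of each pool. A difference in sex between KO naïve 1, 2 and 4 and KO IOP thus cannot be told apart from the response to IOP. Hemoglobin and other erythroid genes took 0.0234, 0.0323, 0.0224 and 0.0371% in KO naïve 1 to 4 and 0.0632, 0.000155, 0.000131 and 0.000241% in KO IOP 1 to 4, so that KO IOP 1 stood apart from the 3 remaining KO IOP libraries. Pigment epithelium genes took 0.262% of KO naïve 1 and no more than 0.0747% of any other library. The smallest p that 4 against 4 libraries allow is 0.029. It was reached by the Y-linked, retinal ganglion cell and Müller glia lists, and no list kept an adjusted p under 0.05 (0.17 for each of these 3). How far each of these differences entered the gene results below was not tested.

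Spp1, the deleted gene (ENSMUSG00000029304.14, chr5:104435118-104441050 on GRCm38), was not uniformly absent. Its normalized count was 350.2, 53.1, 6.78 and 81.6 in KO naïve 1 to 4 and 25.5, 811, 9.28 and 761 in KO IOP 1 to 4. KO naïve 1 and the 2 highest libraries, KO IOP 2 and 4, lay inside the range of the WT naïve libraries (334 to 1518) and below every WT IOP library (lowest 1343). The difference between the KO groups was 0.95 ± 1.58 (SE), adjusted p = 0.72, and the exact two-sided permutation p was 0.66. A count per gene does not tell which exons the reads came from, so it does not check the deletion, and these libraries are called KO as labelled. KO IOP 2 and 4 also shared high Ccr2 and Ccl12 (below).

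Cx3cr1, the fractalkine receptor and the locus of the GFP allele (ENSMUSG00000052336.7, chr9:119901616-120069879), had the lowest adjusted p of all genes. Its normalized count was 9417, 23090.1, 26283 and 24661 in KO naïve 1 to 4 and 1079, 1233, 1067 and 952 in KO IOP 1 to 4. Each KO IOP library lay below each KO naïve library, including KO naïve 3, at a difference of -4.17 ± 0.35 (SE), adjusted p = 9e-07. The mean was 19.3 times as high in KO naïve as in KO IOP. WT IOP libraries held 26836 to 54612. GFP replaces coding sequence at this locus, and the labels do not give the number of GFP alleles in each pool. A difference in that number cannot be told apart from a response to IOP. Against KO naïve 3 alone the difference was -4.61, and the gene passed in all 8 fits that left out 1 library. P2ry12, an ADP receptor of surveying microglia, measured 17495, 18619.6, 61441 and 21109.5 in KO naïve 1 to 4 and 59142, 40890.0, 56619 and 40150.3 in KO IOP 1 to 4. Its groups overlapped, with KO naïve 3 the highest of the 8 libraries (difference 0.93 ± 0.31 (SE), adjusted p = 0.06). Tmem119, a membrane protein of resident microglia, gave 0.98 (adjusted p = 0.057). These 2 markers were chosen after their values were seen.

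Between the groups, 900 genes rose and 480 fell in KO IOP (adjusted p under 0.05 and a log2 difference above 0.58 in size), which is 5.65% and 3.01% of the genes tested (8.66% in all). Of these calls 65.2% were rises, against 64.2% of the 576 calls of edgeR and 51.3% of the 1856 calls of DESeq2 on the reads of all 23 libraries. The median of all genes tested was -0.10. The fit took its spread from all 23 libraries. With the 8 KO libraries alone, only 4 genes passed, namely Cx3cr1, Cst7, Sec1 and the pseudogene Rpl15-ps3, although 3991 had an unadjusted p under 0.05. The count depended on the naïve libraries: without KO naïve 3, 3156 genes passed, and with it as the only naïve library, which also cut that group to 1, 10 passed. Leaving out KO naïve 1, 2 or 4 left 211, 93 or 112 genes, leaving out KO IOP 1, 2, 3 or 4 left 957, 584, 427 or 779, and leaving out KO IOP 2 and 4 together left 159. With the rod list as a covariate, 3 genes passed, namely Cx3cr1, Cst7 and Apoc2. The groups did not overlap at 1936 genes (12.1% of those tested, 5.77% higher and 6.38% lower in KO IOP), of which 793 also passed the test. A set of 76 genes (56 rises and 20 falls) passed in every fit that left out 1 of the 8 libraries. The groups did not overlap for 75 of them, which fixed their direction against KO naïve 3. Of the 900 rises, 755 lay above 0 against KO naïve 3 alone, with their median going from 1.06 to 0.24.

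**Figure D2:**
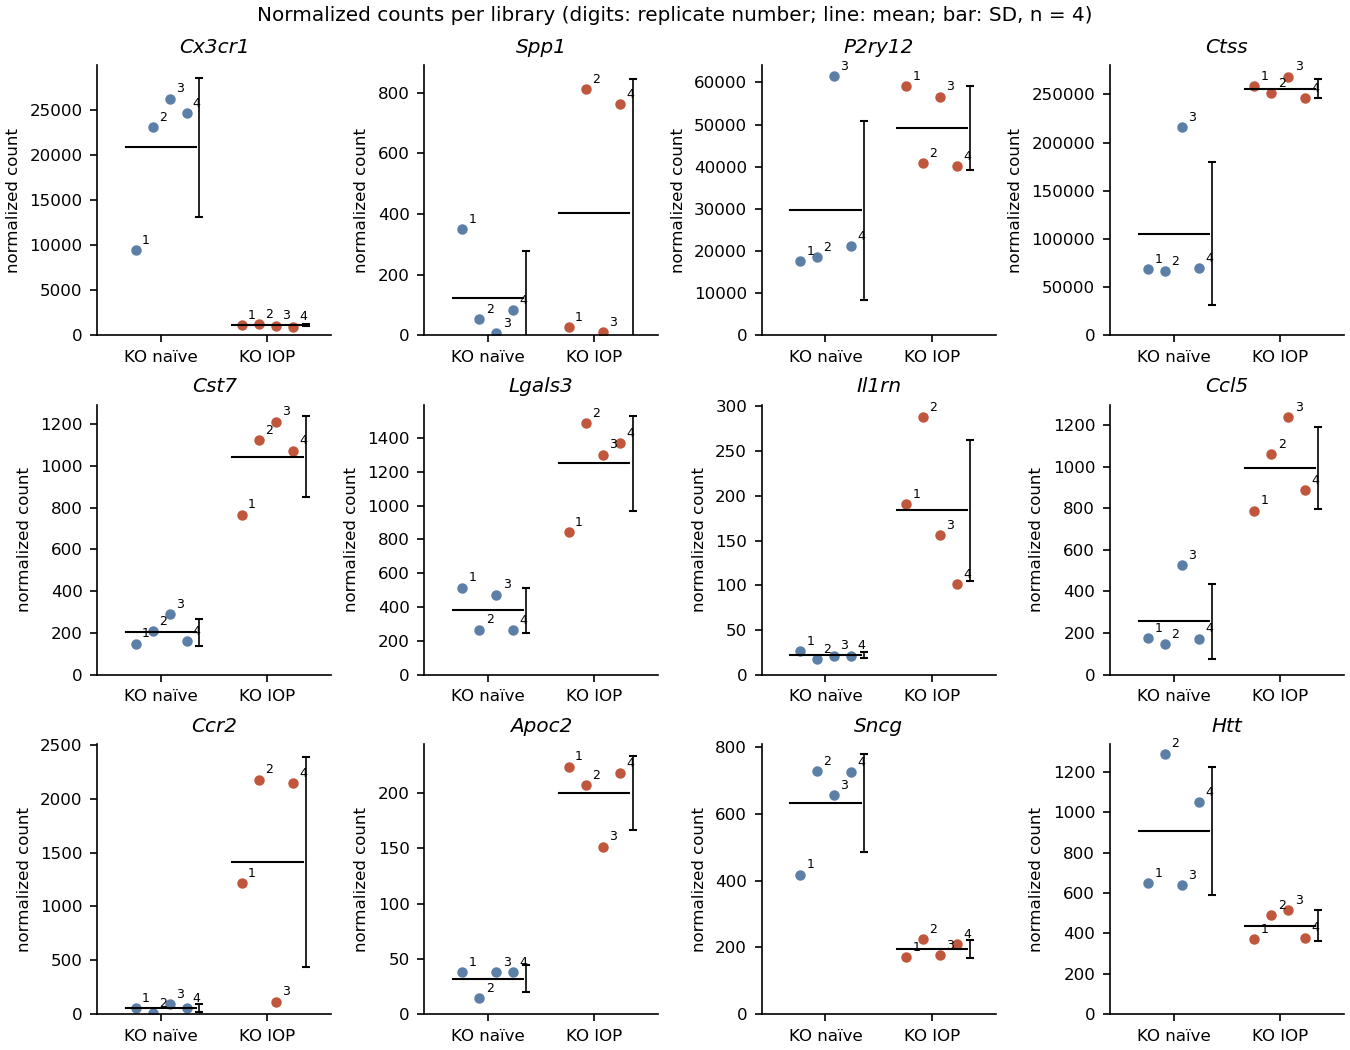
Normalized count of 12 genes in each KO library (y axes, linear, from 0), with digits for the replicate number, a line at the group mean and a bar of 1 SD (n = 4, cut at 0). Cx3cr1, Cst7, Il1rn and Apoc2 separate all KO IOP from all KO naïve libraries, whereas P2ry12 in KO naïve 3 reaches 61441 and Spp1 in KO IOP 2 and 4 exceeds all other KO libraries.

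The rise with the lowest adjusted p among protein-coding genes was that of Cst7, which encodes cystatin F, an inhibitor of lysosomal cathepsins and a marker of disease-associated microglia. Its normalized count was 149, 209.9, 291 and 159 in KO naïve 1 to 4 and 766, 1124, 1211 and 1072 in KO IOP 1 to 4. The lowest KO IOP library was 766 and the highest KO naïve library 291. The difference was 2.39 ± 0.27 (SE), adjusted p = 0.00013, and it was 1.82 against KO naïve 3 alone. Apoc2, the apolipoprotein that activates lipoprotein lipase, measured 38.4, 14.5, 37.8 and 38.2 in KO naïve 1 to 4 and 224, 207, 152 and 218 in KO IOP 1 to 4 (difference 2.68 ± 0.34 (SE), adjusted p = 0.00055). Its groups did not overlap, and KO naïve 2 was the low library. Il1rn encodes the interleukin-1 receptor antagonist. It measured 26.1, 17.7, 21.3 and 21.2 in KO naïve 1 to 4 and 190.4, 288, 156 and 101 in KO IOP 1 to 4, a difference of 2.94 ± 0.44 (SE), adjusted p = 0.0026, and all 4 KO naïve libraries including KO naïve 3 lay within a narrow range. Il1b, the cytokine that this antagonist opposes and which was chosen after its values were seen, measured 76.9 ± 24.4 in KO naïve and 244 ± 41.6 in KO IOP (SD, n = 4 each), a difference of 1.68 ± 0.42 (SE), adjusted p = 0.023.

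The remaining large rises included several receptors. Ccr2, the receptor for CCL2, measured 58.8, 12.1, 94.9 and 58.6 in KO naïve 1 to 4 and 1217, 2177, 117 and 2145 in KO IOP 1 to 4. Its difference was the largest rise among the protein-coding genes selected by size, at 4.30 ± 0.76 (SE), adjusted p = 0.0062, but KO IOP 3 lay only just above KO naïve 3. Fpr1, a formyl peptide receptor, measured 9.80, 14.5, 65.9 and 81.6 in KO naïve and 326, 516, 359 and 423 in KO IOP (difference 3.69 ± 0.80 (SE), adjusted p = 0.015). Ptger4, a prostaglandin E2 receptor, measured 88.2, 61.9, 102 and 21.2 and 246, 500.3, 707 and 670.5 (difference 3.04 ± 0.68 (SE), adjusted p = 0.017). Cd300lf and Cd300lb, lipid-binding receptors of myeloid cells, rose by 2.44 (0.0044) and 3.12 (0.031), and KO naïve 2 was at 0 for Cd300lb. Cox6a2, a subunit of cytochrome oxidase best known from muscle, rose by 2.61 (0.0062), and the predicted gene Gm21188 by 2.90 (0.0067). Lag3, a receptor that binds MHC class II, and Socs3, a brake on STAT3 signalling, were picked after their values were seen. Lag3 measured 247, 239, 524 and 197 in KO naïve 1 to 4 and 776, 1131, 1379.5 and 1178 in KO IOP 1 to 4 (difference 1.96 ± 0.27 (SE), adjusted p = 0.0011) and Socs3 313, 279, 296 and 239 in KO naïve 1 to 4 and 574, 1486, 887 and 1566 in KO IOP 1 to 4 (difference 1.89 ± 0.27 (SE), adjusted p = 0.0019). Both passed in all 8 fits that left out 1 library.

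Above that of Cx3cr1 in size, the 5 largest falls were of genes at or near 0 in most KO IOP libraries, where the fitted difference depends on the value added before the logarithm. No fold is given for these. Ddx3y, a Y-linked RNA helicase, measured 1713, 1302, 28.1 and 1582 in KO naïve 1 to 4 and 3.05, 1.00, 0 and 0 in KO IOP 1 to 4 and followed the split of the Y-linked list. Car12, a membrane carbonic anhydrase, measured 997, 230.0, 74.6 and 363 in KO naïve 1 to 4 and 0, 0, 0 and 7.07 in KO IOP 1 to 4, so that 1 KO IOP library alone had any count. Sec1, a fucosyltransferase gene, measured 120.0, 45.8, 137 and 121 in KO naïve 1 to 4 and 0, 0, 0 and 1.01 in KO IOP 1 to 4. Rassf9 measured 84.1, 61.9, 159.8 and 179 in KO naïve and only KO IOP 4 was above 0, at 29.3. Gm973 measured 194, 39.4, 203 and 25.5 in KO naïve and only KO IOP 2 was above 0, at 8.04. Their adjusted p-values were 0.017, 0.0062, 0.0026, 0.029 and 0.0062. Nid1, a basement membrane protein, Mal2, a protein of membrane traffic, Nqo1, a quinone reductase, and Clstn2, a synaptic calsyntenin, also fell, with adjusted p from 0.022 to 0.043. Among genes well above 0 in both groups, Gstt1, a glutathione transferase chosen after its values were seen, fell and measured 467 ± 133 in KO naïve and 119 ± 36.2 in KO IOP (SD, n = 4 each), a difference of -1.99 ± 0.31 (SE), adjusted p = 0.0026.

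Of the 30-gene disease-associated microglia list, 20 members rose and none fell, or 66.7% against 5.65% of all genes tested and 62.5% of the 16 microglia markers. The median of the list was 1.10, 1.36 without KO naïve 3 and 0.37 against it alone. For the microglia markers these medians were 1.11, 1.49 and -0.04. Lgals3, the lectin galectin-3, measured 515, 267, 474 and 264 in KO naïve 1 to 4 and 845, 1488, 1301 and 1370.2 in KO IOP 1 to 4 (difference 1.75 ± 0.32 (SE), adjusted p = 0.0062). Its groups did not overlap and the difference against KO naïve 3 alone was 1.37. Itgax, the CD11c integrin, measured 145, 162, 538 and 159 in KO naïve 1 to 4 and 625, 792, 1686 and 714 in KO IOP 1 to 4 (difference 2.05 ± 0.45 (SE), adjusted p = 0.016), with KO naïve 3 between the groups. Ctsl, a lysosomal cysteine protease, rose by 1.12 (0.0088), Cd52, a surface glycoprotein, by 1.66 (0.012) and Tyrobp, the adaptor of TREM2, by 1.34 (0.012). Their differences against KO naïve 3 alone were 0.37, 0.52 and 0.20. Apoe, the lipid carrier of the list chosen here after its values were seen, measured 176807, 139615, 262251 and 149741 in KO naïve 1 to 4 and 309561, 442553, 316187 and 439334 in KO IOP 1 to 4 without passing (difference 1.07 ± 0.45 (SE), adjusted p = 0.13).

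Genes of cytokines, chemokines and the inflammasome rose in part. Of 36 members tested, 19 rose and none fell, or 52.8% against 5.65% of all genes. The list median was 1.15 (1.34 without KO naïve 3 and 0.43 against it alone), and 25 members lay above 0 against KO naïve 3. Ccl5, a T cell and monocyte attractant, measured 177, 147, 526 and 173 in KO naïve 1 to 4 and 789, 1059, 1239 and 888 in KO IOP 1 to 4 (difference 2.14 ± 0.37 (SE), adjusted p = 0.0062). Each KO IOP library exceeded each KO naïve library, and KO naïve 3 was the highest of the naïve group. Ccl2, the ligand of CCR2, measured 51.4, 90.9, 124 and 56.1 in KO naïve 1 to 4 and 243, 562, 214 and 672 in KO IOP 1 to 4 (difference 2.30 ± 0.43 (SE), adjusted p = 0.0079), with KO IOP 2 and 4 highest. Ccl12, another CCR2 ligand, measured 978, 1308, 2509.9 and 1622 in KO naïve and 3919, 9959, 3912 and 9589 in KO IOP (difference 2.03 ± 0.44 (SE), adjusted p = 0.015), with the same 2 libraries highest. Ccl9 rose by 1.56 (0.015) and Ccl4, a chemokine, by 1.82 (0.017). The monocyte list gave 3 rises among 10 members (30% against 5.65% of all genes). Its summed share was 0.0190, 0.0119, 0.0107 and 0.0115% in KO naïve 1 to 4 and 0.0138, 0.0293, 0.00995 and 0.0282% in KO IOP 1 to 4, with overlapping groups. Its median was 1.30 (1.92 without KO naïve 3 and 0.45 against it alone), with 8 members above 0. Border macrophage genes, with a median of 0.92 and 8 of 10 above 0, gave 1 rise (10% against 5.65% of all genes), that of Ms4a7 (difference 1.33, adjusted p = 0.038). The part of other myeloid cells in these chemokine values was not tested.

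**Figure D3:**
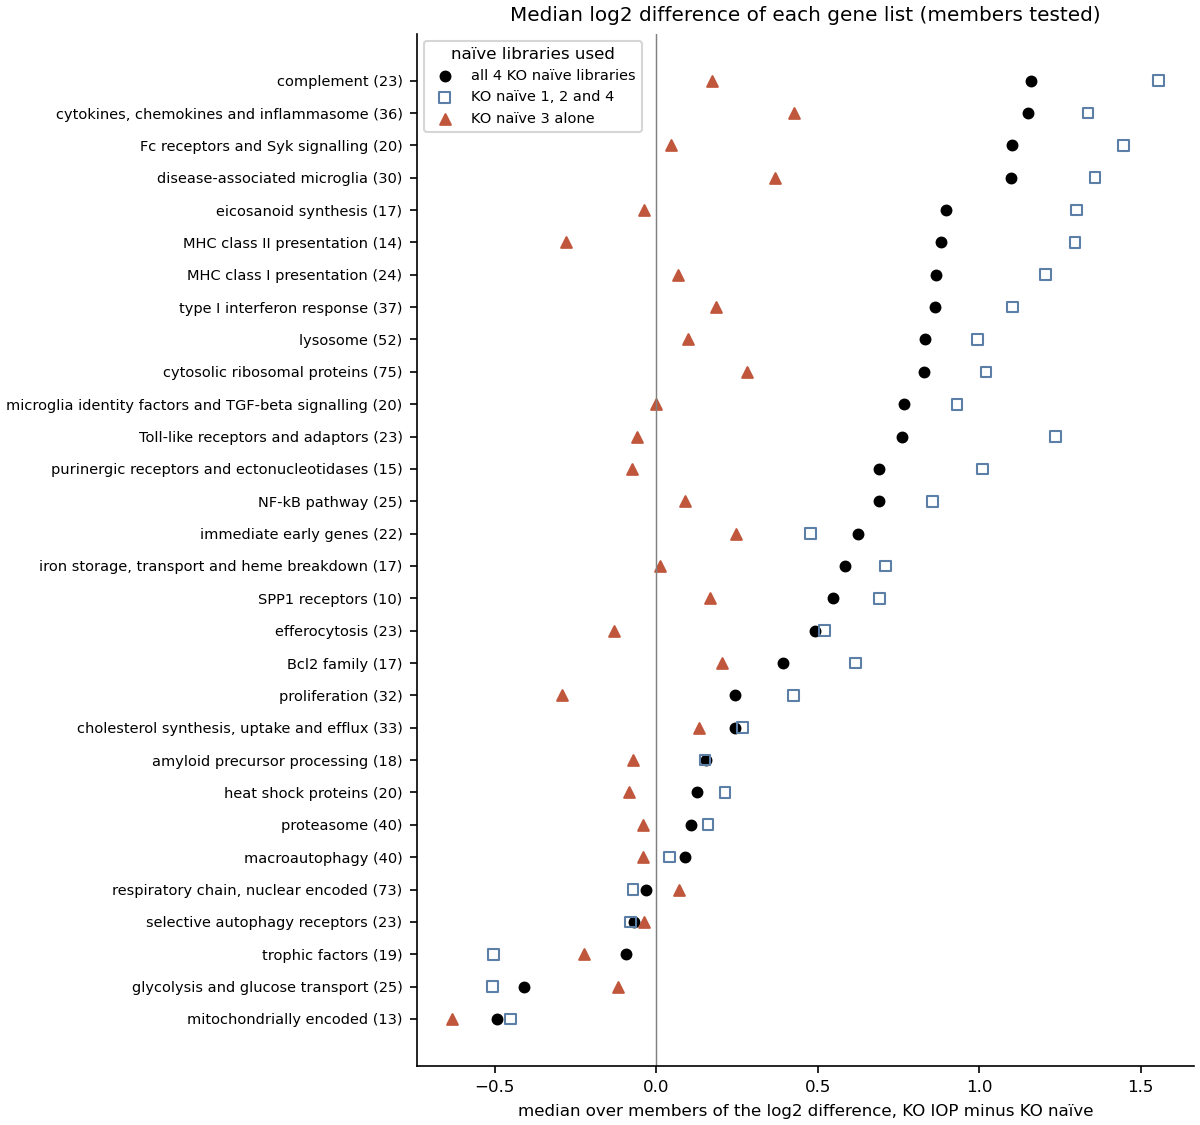
Median log2 difference, KO IOP minus KO naïve, over the members of each pathway list (x axis), with the number tested in parentheses and 1 symbol for each choice of naïve libraries. Most immune lists lie near 1 with all 4 naïve libraries (complement 1.16) and near 0 against KO naïve 3 alone (complement 0.17), while macroautophagy, proteasome and nuclear-encoded respiratory chain lists lie near 0 for each choice.

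Among complement genes, a few stayed far above KO naïve 3. Of 23 complement genes 11 rose, or 47.8% against 5.65% of all genes (median 1.16, 1.55 without KO naïve 3 and 0.17 against it alone). C3, the central component, measured 501, 77.2, 219 and 212 in KO naïve 1 to 4 and 677, 634, 852 and 1243 in KO IOP 1 to 4 (difference 1.99 ± 0.38 (SE), adjusted p = 0.0088), and Cfb, the alternative pathway factor B, measured 102, 33.8, 75.6 and 42.5 in KO naïve 1 to 4 and 272, 372, 144 and 340.3 in KO IOP 1 to 4 (difference 2.18 ± 0.41 (SE), adjusted p = 0.0079). Both stayed high against KO naïve 3 alone, at 1.90 and 1.80, unlike C1qa, the classical pathway recognition chain (1.35 with all naïve libraries and 0.20 against KO naïve 3) and Itgam, a chain of complement receptor 3 (1.70 and 0.17). Of 20 genes for Fc receptors and Syk signalling 16 rose, or 80% against 5.65% of all genes. Their median was 1.10 (1.45 without KO naïve 3 and 0.05 against it alone). Syk, the kinase below these receptors, measured 608, 815, 1737 and 873 in KO naïve 1 to 4 and 1887, 2785, 2635 and 2421 in KO IOP 1 to 4 (difference 1.37 ± 0.30 (SE), adjusted p = 0.015), above KO naïve 3 in all 4 KO IOP libraries. Fcgr1, the high-affinity IgG receptor, rose by 1.43 (0.017), and Fgr, a Src-family kinase, by 1.55 (0.015).

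Genes of antigen presentation and of the interferon response rose in part. For MHC class I, 11 of 24 genes rose, or 45.8% against 5.65% of all genes (median 0.86, 1.20 without KO naïve 3 and 0.07 against it alone). H2-D1, a class I heavy chain, measured 24031, 23157, 66415 and 25554 in KO naïve 1 to 4 and 83045, 70721, 79537 and 73559 in KO IOP 1 to 4 (difference 1.30 ± 0.27 (SE), adjusted p = 0.013), and B2m, its light chain, measured 14393, 15975, 43461 and 16516 in KO naïve 1 to 4 and 43969.8, 50359, 57915 and 45412 in KO IOP 1 to 4 (difference 1.29 ± 0.31 (SE), adjusted p = 0.022). In both genes KO naïve 3 lay close below the KO IOP libraries. For MHC class II, 6 of 14 genes rose, or 42.9% against 5.65% of all genes (median 0.88, 1.30 without KO naïve 3 and -0.28 against it alone). They were led by H2-Oa, a chain of the peptide-loading regulator H2-O, at 209, 224, 469 and 173 in KO naïve 1 to 4 and 1065, 679, 1179.5 and 667 in KO IOP 1 to 4 (difference 1.80 ± 0.28 (SE), adjusted p = 0.0031), and H2-DMb2, a chain of the peptide editor H2-M (1.37 ± 0.29 (SE), adjusted p = 0.015). The class II chain gene H2-Aa and its chaperone Cd74, chosen after their values were seen, gave 0.84 (0.38) and 0.80 (0.37) with overlapping groups. For the type I interferon response, 13 of 37 genes rose, or 35.1% against 5.65% of all genes. Their median was 0.86 (1.10 without KO naïve 3 and 0.18 against it alone). Zbp1, a sensor of Z-form nucleic acids, measured 89.0, 180.1, 272 and 139 in KO naïve 1 to 4 and 371, 722, 493 and 636 in KO IOP 1 to 4 (difference 1.77 ± 0.35 (SE), adjusted p = 0.011), Slfn5 rose by 1.73 (0.014), Irf7, the interferon-induced transcription factor, by 1.23 (0.016), and Bst2, the tethering protein tetherin, by 1.15 (0.017).

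Interferon-stimulated genes often carry a response element in their promoter, whose core GAAANNGAAA was searched on both strands (TTTCNNTTTC is its reverse complement) in 300 bases of each RefSeq promoter on GRCm38.p6. It was found in the promoters of 17 of 27 interferon list genes that have one in the table, of 5 of 20 class I genes and of 0 of 9 class II genes, and in 3.90% of all genes tested that have one. Among the members that rose, 4 of 10 interferon genes and 3 of 10 class I genes held it. The 250 bases before the start are shown for B2m (chr2:122147437-122147686, plus strand) and Bst2 (chr8:71537473-71537722, minus strand), in both of which it occurs, and for Cst7 (chr2:150570165-150570414, plus strand), where it does not, 5′ to 3′ with the core in capitals.
B2m: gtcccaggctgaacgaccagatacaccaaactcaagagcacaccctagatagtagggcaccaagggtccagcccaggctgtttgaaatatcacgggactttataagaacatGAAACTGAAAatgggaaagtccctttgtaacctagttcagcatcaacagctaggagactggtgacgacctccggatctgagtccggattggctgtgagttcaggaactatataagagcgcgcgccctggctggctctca
Bst2: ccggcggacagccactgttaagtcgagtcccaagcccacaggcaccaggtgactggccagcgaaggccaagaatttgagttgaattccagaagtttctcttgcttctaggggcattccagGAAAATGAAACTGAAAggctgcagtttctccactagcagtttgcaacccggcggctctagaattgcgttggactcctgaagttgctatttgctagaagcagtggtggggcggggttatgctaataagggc
Cst7: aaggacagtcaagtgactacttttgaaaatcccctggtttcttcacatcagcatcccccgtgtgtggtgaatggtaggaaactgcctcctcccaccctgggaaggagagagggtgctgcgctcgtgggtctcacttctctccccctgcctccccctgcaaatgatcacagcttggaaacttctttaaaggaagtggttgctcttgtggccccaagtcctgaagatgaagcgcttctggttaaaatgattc
In B2m the core began 139 bases before the start, and in Bst2 overlapping copies began 130 and 124 bases before it. A match is a description of these letters only.

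Pattern recognition and NF-κB genes were partly raised. Of 23 Toll-like receptor and adaptor genes 11 rose, or 47.8% against 5.65% of all genes. Their median was 0.76 (1.24 without KO naïve 3 and -0.06 against it alone). Tlr2, a receptor for lipopeptides, measured 1621, 1907, 5147 and 1837 in KO naïve 1 to 4 and 6407, 5909.9, 8213 and 6053 in KO IOP 1 to 4 (difference 1.50 ± 0.33 (SE), adjusted p = 0.017), and its partner Tlr6 rose by 1.42 (0.019). Of 25 NF-κB pathway genes 7 rose, or 28% against 5.65% of all genes (median 0.69, 0.86 without KO naïve 3 and 0.09 against it alone). Relb, the non-canonical subunit, measured 346, 266, 175 and 75.6 in KO naïve 1 to 4 and 434, 491, 1086 and 1018 in KO IOP 1 to 4 (difference 1.89 ± 0.56 (SE), adjusted p = 0.04). Its groups did not overlap, although KO naïve 1 and KO IOP 1 were close, and it lost the call in 6 of the 8 fits that left out 1 library. Nfkb2, the partner of RelB, rose by 1.30 (0.025), and Nfkbie, an inhibitor of the pathway, by 1.17 (0.015). Of 17 eicosanoid synthesis genes 4 rose, or 23.5% against 5.65% of all genes (median 0.90, 1.30 without KO naïve 3 and -0.04 against it alone). Pla2g4a, the phospholipase that releases arachidonic acid, measured 843, 990.0, 1719 and 875 in KO naïve 1 to 4 and 2679, 2625, 1996 and 2101 in KO IOP 1 to 4 (difference 1.14 ± 0.24 (SE), adjusted p = 0.015), and Hpgds, a prostaglandin D synthase, rose by 1.20 (0.022). Ptgs2, the inducible cyclooxygenase, measured 21.2, 0, 21.3 and 1.70 in KO naïve 1 to 4 and 33.6, 54.2, 65.0 and 23.2 in KO IOP 1 to 4 without passing (difference 2.79 ± 1.11 (SE), adjusted p = 0.11). Pla2g6, a calcium-independent phospholipase, gave -0.25 (0.55).

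Lysosomal genes rose in part, and most genes of the autophagy machinery did not pass. Of 52 lysosomal genes 22 rose and 1 fell, or 44.2% against 8.66% of all genes. Their median was 0.83 (0.99 without KO naïve 3 and 0.10 against it alone). Psap, the saposin precursor, measured 26159, 27077, 74383 and 33197 in KO naïve 1 to 4 and 99651, 102671, 91501 and 105423 in KO IOP 1 to 4 (difference 1.45 ± 0.28 (SE), adjusted p = 0.0079), with KO naïve 3 below all KO IOP libraries. Npc2, a cholesterol carrier of the lysosome, rose by 1.28 (0.0079), and the proteases Ctsh and Ctss by 1.24 (0.012) and 1.49 (0.014). Of 40 macroautophagy genes 4 rose and none fell (10% against 5.65% of all genes, median 0.09, 0.04 without KO naïve 3 and -0.04 against it alone), among them Becn1, a subunit of the lipid kinase that starts autophagosomes, at 2203, 1891, 2844 and 2114 in KO naïve 1 to 4 and 3856, 3300.0, 3717 and 3689.5 in KO IOP 1 to 4 (difference 0.70 ± 0.17 (SE), adjusted p = 0.022). Of 23 selective autophagy receptors only Retreg1, a receptor for the endoplasmic reticulum, rose (4.35% against 5.65% of all genes). Its difference was 0.96 ± 0.26 (SE), adjusted p = 0.032, and it gave -0.01 against KO naïve 3 alone. Sqstm1 (p62) measured 11964, 10108, 13432 and 11004 in KO naïve 1 to 4 and 13438, 12401, 13879 and 12236 in KO IOP 1 to 4, a difference of 0.17 ± 0.14 (SE), adjusted p = 0.46. Htt, whose protein acts as an autophagy scaffold, measured 649, 1291, 639 and 1050.5 in KO naïve 1 to 4 and 371, 491, 516 and 379 in KO IOP 1 to 4. Its groups did not overlap, but it did not pass (difference -0.99 ± 0.35 (SE), adjusted p = 0.07). Wdfy3, Optn and Ubqln2, adaptors for aggregates, mitochondria and ubiquitinated proteins, gave -0.43 (0.21), -0.57 (0.53) and -1.27 (0.072).

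Few genes of the proteasome list rose. Of 40 genes 4 rose, or 10% against 5.65% of all genes (median 0.11, 0.16 without KO naïve 3 and -0.04 against it alone). The 4 were the immunoproteasome catalytic subunits Psmb8, Psmb9 and Psmb10 and the activator subunit Psme1, which are induced by interferon. Psmb9 measured 598, 651, 1249 and 626 in KO naïve 1 to 4 and 1448, 1473, 1734 and 1500.4 in KO IOP 1 to 4 (difference 1.05 ± 0.29 (SE), adjusted p = 0.031) and Psme1 1783, 1526, 3038 and 1820.5 in KO naïve 1 to 4 and 3363, 3305, 3697 and 3213 in KO IOP 1 to 4 (difference 0.78 ± 0.20 (SE), adjusted p = 0.025). Psmb8 gave 1.13 (0.034) and only 0.07 against KO naïve 3 alone. Cytosolic ribosomal protein genes gave 34 rises and no fall among 75, or 45.3% against 5.65% of all genes. Their median was 0.83 (1.02 without KO naïve 3 and 0.28 against it alone), and 72 of them lay above 0 against KO naïve 3. Rps25 measured 1803, 2254, 3886 and 2209.7 in KO naïve 1 to 4 and 4529.7, 5483, 6459 and 5107 in KO IOP 1 to 4 (difference 1.14 ± 0.26 (SE), adjusted p = 0.017), and Rpl4 rose by 0.66 (0.022). Ribosomal protein genes share sequence with many pseudogenes, so their counts are uncertain, and the same holds for the pseudogene Rpl15-ps3, chosen after its values were seen, which measured 0, 0, 0 and 0 in KO naïve 1 to 4 and 382, 901, 884 and 608 in KO IOP 1 to 4. It also varied between WT libraries, at 507, 0, 0 and 0 in WT naïve 1 to 4 and 0, 216, 7.54 and 0 in WT IOP 1 to 4.

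Genes of respiration and sugar use did not move with the immune lists. None of 73 nuclear-encoded respiratory chain genes passed (median -0.03), and none of 13 mitochondrially encoded genes (median -0.49) or of 20 heat shock protein genes (median 0.13). Of 25 glycolysis genes only Hk3, the hexokinase of myeloid cells, rose (4% against 5.65% of all genes). Its difference was 1.10 ± 0.29 (SE), adjusted p = 0.028, against a list median of -0.41. None of 19 trophic factor genes passed. Of 17 iron and heme genes 6 rose, or 35.3% against 5.65% of all genes (median 0.58, 0.71 without KO naïve 3 and 0.01 against it alone). They were led by Hmox1, the heme oxygenase, at 305, 373, 665 and 430.0 in KO naïve 1 to 4 and 966, 1062, 1226 and 1484 in KO IOP 1 to 4 (difference 1.46 ± 0.24 (SE), adjusted p = 0.0044), which passed in all 8 fits that left out 1 library. The ferritin chains Fth1 and Ftl1 rose by 1.13 (0.022) and 1.14 (0.019). Of 33 cholesterol genes 4 rose, or 12.1% against 5.65% of all genes (median 0.24, 0.27 without KO naïve 3 and 0.13 against it alone). Besides Npc2 they included the efflux transporter Abca1 (0.94, 0.034), with overlapping groups and 0.26 against KO naïve 3 alone.

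Receptors for SPP1 and genes of TGF-β signalling gave mixed results. Of 10 SPP1 receptor genes 2 rose and 1 fell, or 30% against 8.66% of all genes (median 0.55, 0.69 without KO naïve 3 and 0.17 against it alone). Cd44 measured 992, 493, 1356 and 446 in KO naïve 1 to 4 and 1496, 1355, 2353 and 958 in KO IOP 1 to 4 (difference 0.99 ± 0.29 (SE), adjusted p = 0.042), with overlapping groups. Itgb3, the integrin β3 chain, measured 641, 644, 2863 and 535 in KO naïve 1 to 4 and 3214, 2676, 3757 and 3861 in KO IOP 1 to 4 (difference 1.90 ± 0.42 (SE), adjusted p = 0.016), and KO naïve 3 lay within the KO IOP range. Itgb8, the integrin β8 chain that activates TGF-β, fell (-2.26 ± 0.69 (SE), adjusted p = 0.045), but KO naïve 1 held 3035 and KO naïve 3 only 143, and the difference against KO naïve 3 alone was 0.23. Itgav, the αv chain, gave 0.10 (0.86), and App, the amyloid precursor, gave -0.04 (0.94). Of 20 identity and TGF-β genes 4 rose and 2 fell, or 30% against 8.66% of all genes. Their median was 0.77 (0.93 without KO naïve 3 and -0.0012 against it alone). Smad4, the shared mediator of TGF-β signals, measured 267, 713, 480.5 and 617 in KO naïve 1 to 4 and 166, 299, 180.4 and 162 in KO IOP 1 to 4 and fell (difference -1.32 ± 0.32 (SE), adjusted p = 0.022), by the same size against KO naïve 3 (-1.30), though KO IOP 2 exceeded KO naïve 1. The receptors Tgfbr1 and Tgfbr2 and the factor Irf8 rose by 1.18 (0.036), 1.34 (0.029) and 1.08 (0.031), and each was slightly below 0 against KO naïve 3 alone. Runx1, a transcription factor of myeloid cells, measured 1046, 1098, 1336 and 366 in KO naïve 1 to 4 and 1874, 2344, 3097 and 3086 in KO IOP 1 to 4 (difference 1.55 ± 0.45 (SE), adjusted p = 0.037).

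Of 22 immediate early genes 6 rose, or 27.3% against 5.65% of all genes (median 0.62, 0.48 without KO naïve 3 and 0.25 against it alone). Among them were Junb at 1.11 (0.0088), Egr2 at 1.98 (0.018) and Myc at 1.10 (0.028). Of 15 purinergic genes 3 rose, or 20% against 5.65% of all genes (median 0.69, 1.01 without KO naïve 3 and -0.08 against it alone). They were led by the ATP-gated channel P2rx4 at 1684, 1464, 3312 and 1651 in KO naïve 1 to 4 and 4836, 4666, 4871 and 5087 in KO IOP 1 to 4 (difference 1.34 ± 0.27 (SE), adjusted p = 0.011). Of 23 efferocytosis genes 5 rose and 1 fell, or 26.1% against 8.66% of all genes (median 0.49, 0.52 without KO naïve 3 and -0.13 against it alone). The rises included the receptors Axl at 1.31 (0.022) and Mertk at 1.00 (0.035). Mertk gave -0.22 against KO naïve 3 alone. Of 17 Bcl2 family genes 6 rose and 1 fell, or 41.2% against 8.66% of all genes (median 0.39, 0.62 without KO naïve 3 and 0.20 against it alone). The death agonist Bid rose by 0.97 (0.0096). Of 18 amyloid processing genes 4 rose and 1 fell, or 27.8% against 8.66% of all genes (median 0.15, 0.15 without KO naïve 3 and -0.07 against it alone). The γ-secretase subunit Psenen rose by 0.89 (0.019). Of 32 proliferation genes 2 rose (6.25% against 5.65% of all genes), Mcm3 at 1.21 (0.023) and Cdk1 at 1.22 (0.033). The median of that list was 0.24, 0.42 without KO naïve 3 and -0.29 against it alone.

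Transcripts of retinal neurons were among those that fell. Of 20 rod genes 5 fell, or 25% against 3.01% of all genes (median -0.98, -1.34 without KO naïve 3 and 0.11 against it alone). Pde6g, a subunit of the rod phosphodiesterase, measured 42355, 47513, 19887 and 50701 in KO naïve 1 to 4 and 19734, 17106, 12693 and 17008 in KO IOP 1 to 4 (difference -1.20 ± 0.32 (SE), adjusted p = 0.029), and Gngt1, a transducin subunit, fell by 1.26 (0.037), with KO naïve 3 at the level of KO IOP in both. Ganglion cell transcripts differed from this pattern in that KO naïve 3 stayed with its group. Of 11 ganglion cell genes 2 fell, or 18.2% against 3.01% of all genes (median -1.32, -1.32 without KO naïve 3 and -1.08 against it alone). Sncg, γ-synuclein, measured 419, 729, 657 and 726 in KO naïve 1 to 4 and 171, 226, 176 and 210.0 in KO IOP 1 to 4 (difference -1.66 ± 0.30 (SE), adjusted p = 0.0062), without overlap. Stmn2, a regulator of axonal microtubules, measured 398, 638, 521 and 473 in KO naïve 1 to 4 and 308, 208, 326 and 174 in KO IOP 1 to 4 (difference -1.02 ± 0.31 (SE), adjusted p = 0.045), also without overlap. The list summed to 0.0638, 0.0626, 0.0577 and 0.0667% in KO naïve 1 to 4 and 0.0387, 0.0307, 0.0297 and 0.0250% in KO IOP 1 to 4. Otx2, a factor of photoreceptors and bipolar cells, fell by 1.44 (0.014). Rlbp1, the retinal-binding protein of Müller glia, measured 14704, 7094, 7782 and 9296 in KO naïve 1 to 4 and 5025, 3552, 4748 and 3086 in KO IOP 1 to 4 (difference -1.21 ± 0.29 (SE), adjusted p = 0.02). The summed Müller glia share was higher in KO IOP nonetheless, and that list held Apoe, which microglia also express and which took most of the sum. Hemoglobin α (Hba-a1) measured 1699.8, 2175, 2206 and 2604 in KO naïve 1 to 4 and 5828, 3.01, 10.3 and 1.01 in KO IOP 1 to 4, so its fitted difference (-6.31 ± 1.58 (SE), adjusted p = 0.023) runs against KO IOP 1, the highest of the 8 libraries.

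The response was set against that of WT microglia, which share no library with it. The difference between the 2 responses passed for 1462 genes (9.17% of those tested), 842 higher (5.28%) and 620 lower (3.89%) in the KO. Cx3cr1 changed by -0.45 in WT, and the responses differed by -3.71 ± 0.49 (SE), adjusted p = 0.00043. For Cst7 the WT change was -0.24 and the responses differed by 2.63 ± 0.39 (SE), adjusted p = 0.00091. Il1rn (3.35 ± 0.62 (SE), adjusted p = 0.0055), Ccl5 (2.91 ± 0.53 (SE), adjusted p = 0.0048), Syk (2.16 ± 0.42 (SE), adjusted p = 0.007) and H2-Oa (2.83 ± 0.40 (SE), adjusted p = 0.0007) also differed, each with a WT change below 0 (-0.40, -0.77, -0.79 and -1.02). Sncg, which fell in the KO, changed by 1.43 in WT (responses differing by -3.09 ± 0.42 (SE), adjusted p = 0.00053). Naïve means of these genes were not equal between genotypes. Means in KO naïve, KO IOP and WT naïve were 202, 1043 and 329 for Cst7 and 21.6, 184 and 75.2 for Il1rn. They were 256, 994 and 580 for Ccl5, 1008, 2432 and 1940 for Syk and 268, 898 and 850 for H2-Oa. For Sncg they were 633, 196 and 225. The part of the naïve levels in these differences was not tested. Of the named genes that did not pass within the KO, Htt changed by 0.96 in WT (responses differing by -1.95 ± 0.49 (SE), adjusted p = 0.019), Ubqln2 by 1.19 (-2.46 ± 0.63 (SE), adjusted p = 0.021), Pla2g6 by -1.39 (1.15 ± 0.36 (SE), adjusted p = 0.047) and Ptgs2, at 0 or a few counts in some libraries, by -4.76 (7.55 ± 1.57 (SE), adjusted p = 0.0091). Lag3 and Gstt1 differed by 3.24 and -3.44. In all, 67 of 114 named genes passed this test, against 9.17% of all genes. Of the 114, 99 had passed between the KO groups, a difference that this test contains. Their share was therefore raised by how they were named. No difference was detected for Lgals3 (1.40 in WT, difference 0.36 ± 0.45 (SE), adjusted p = 0.65) or Irf7 (0.95 in WT, difference 0.28 ± 0.38 (SE), adjusted p = 0.68), and no interferon list gene passed this test. The microglia list, at a median of -0.34 in WT, and its share of 2.91 to 4.69% in WT IOP against 4.32 to 5.28% in WT naïve moved in the opposite way to the KO, and its part in these differences was not tested. Of 13 mitochondrially encoded genes 12 were lower in the KO response than in that of WT (median difference -1.51, WT median 0.98). The same held for 8 of 10 lens genes (median difference -7.38), whose summed share was 0.155 to 1.14% in WT IOP against 0.0111 to 0.0223% in WT naïve and 0.00695, 0.00915, 0.00746 and 0.00848% in KO IOP 1 to 4, so that each WT IOP library lay above all of these, and the part of lens transcripts in the differences was not tested. With the microglia list as a covariate 103 genes passed.

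**Figure D4:**
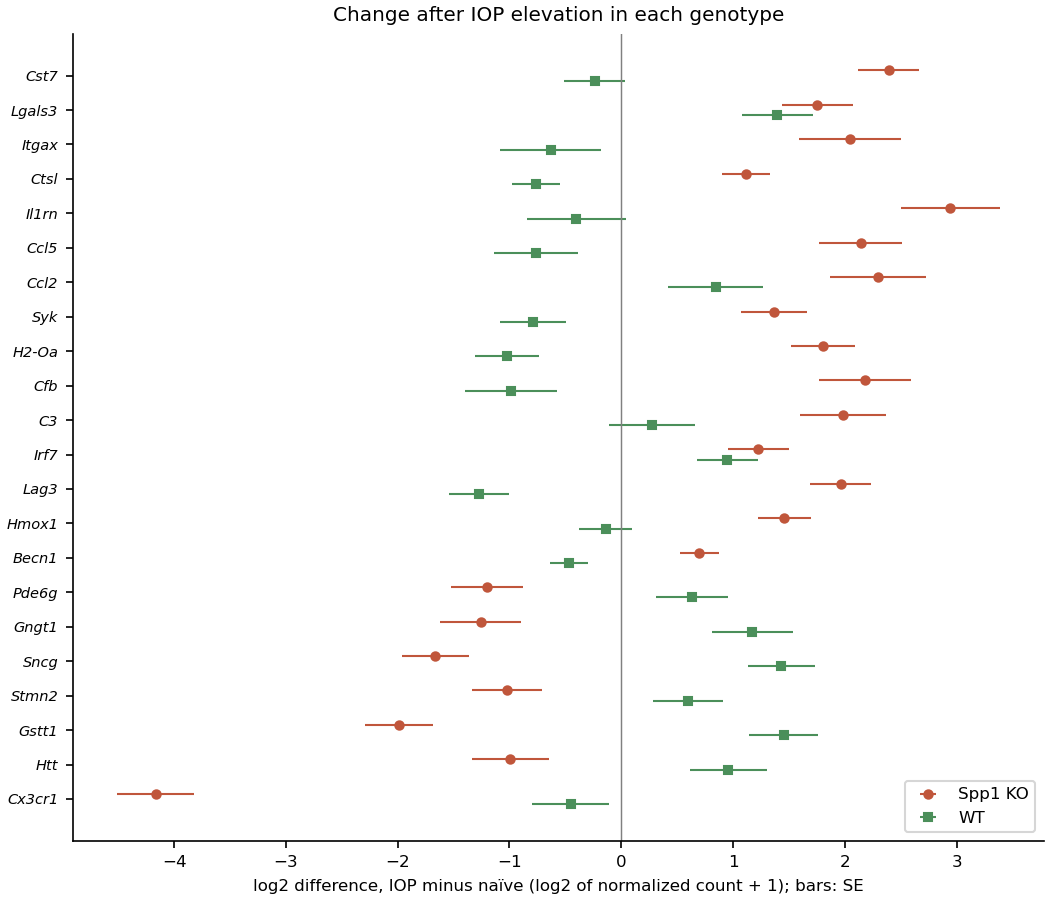
Log2 difference IOP minus naïve (x axis, log2 of normalized count + 1) of 22 genes in Spp1 KO (circles) and WT (squares), with bars of 1 SE (4 libraries a group). Cst7, Il1rn, Syk and H2-Oa lie right of 0 in the KO and left of 0 in WT, Sncg and Gstt1 the reverse, and Lgals3 and Irf7 lie right of 0 in both.

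Levels were last set against the microglia list itself, as normalized counts per 1000 counts of that list in the same library, as a description without a test. On this scale Cst7 was 2.28 times as high in KO IOP as in KO naïve by group means, Il1rn 3.41 times, Apoc2 2.61 times, Fpr1 4.51 times and Ccl5 1.96 times, and the groups did not overlap for these 5. Lag3 (1.73 times), Socs3 (1.66 times) and Lgals3 (1.38 times) overlapped. Further rises without overlap included Cox6a2 (2.65 times), Itgax (1.93), Itgb3 (1.62), H2-Oa (1.54), Cd52 (1.40), Ccl9 (1.30) and Tlr2 (1.25). For Tyrobp, B2m, Psap, Syk and C1qa the ratio lay between 1.08 and 1.21, with overlap in each. C1qa is itself a member of the list, so it was partly divided by itself. Of 79 named genes that rose, 23 had a ratio under 1, among them Rpl4 (0.673), Becn1 (0.679), Psme1 (0.738) and Mertk (0.882). Cx3cr1 per 1000 counts of the list was 21.1, 48.6, 18.3 and 47.2 in KO naïve 1 to 4 and between 0.654 and 0.921 in KO IOP, so that it separated the groups on this scale too.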

How the data were processed

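Sorted retinal microglia were profiled by paired-end RNA-seq in 23 pools, of which 8 are compared here. The authors' processing notes name STAR, DESeq2 and GRCm38, whereas the study's methods name salmon for mapping. Which of these tools gave the deposited values is not stated. The deposited signal values are read counts per gene divided by the authors' DESeq2 size factors (per the study's methods and the values), so they are normalized counts. All values were whole multiples of 1 read in all 23 libraries (100% within 0.01 reads). Normalized totals of the 8 libraries ran from 20851661 to 27515629 and recovered reads from 25042635 to 28434643, so counting error matters at low values only. In KO IOP 2 and 4 a read was worth close to 1 (1.00 and 1.01), and a rule of this work on such steps left both out of the planned count tests. Count tests on all 23 libraries were added after seeing the data.

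Columns were mapped to samples by name. IDs were matched to GENCODE M21 (35436 of 35825), and RefSeq promoters came from GRCm38.p6. Genes with a value of at least 10 in at least 3 of the 8 libraries were fitted with limma 3.58.1 (trend, 6 groups, all 23 libraries) on log2(value + 1), in R 4.3.3, with Benjamini-Hochberg adjustment; a call needed an adjusted p under 0.05 and a size above 0.58. The unit was signal and not counts, so limma replaced a count test as the main fit. edgeR 4.0.16 and DESeq2 1.42.0 on recovered reads were alternatives. The limma fit was tested on simulated data. Single values were compared by exact two-sided permutation. SE is that of the fit, and SD is over libraries. Figures were drawn with matplotlib 3.10.9.

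Genes were named by rule: Spp1 and Cx3cr1, the 10 largest rises and falls among called protein-coding genes without overlap and with a mean of at least 100 in the higher group, at most 6 called members of each list (the 2 highest by mean where fewer than 2 passed), and 13 genes the study discusses. Genes chosen after their values were seen are marked in the text. Members and lists were chosen with earlier results of these data known. Of the lists, 2 symbols were not matched. The cone, amacrine, astrocyte, lens, endothelium, pericyte, T and NK cell and neutrophil lists served as cell checks. A few genes that the rule named are not reported here.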

Additional observations from a re-analysis of the deposited data

Results flagged for a closer look

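In groups of 4 libraries (leaving out those with 3 or more at 0), 51 of 259 groups examined held a library set apart by a gap above Dixon's 95% limit. Chance gives about 1 in 20 for independent groups. The same libraries enter each of these groups, so the flags are not independent and their count cannot be set against that rate. In 36 of the gene groups the library set apart was KO naïve 3. Its values were 216348 for Ctss, 14868 for Ctsl, 24124 for Ctsh, 74383 for Psap and 11229 for Npc2, genes of the lysosome. Among surface and signalling genes it held 61441 for P2ry12, 76529 for Tmem119, 31622 for Itgam, 538 for Itgax, 2863 for Itgb3, 16096 for Axl, 7376 for Mertk, 5147 for Tlr2, 3312 for P2rx4, 26563 for Tyrobp and 3681 for Cd52, and 44295, 26436 and 16163 for Tgfbr1, Tgfbr2 and Irf8. Among immune genes it held 66415 for H2-D1, 43461 for B2m, 18814 for H2-Aa, 6640.4 for Psmb8, 1249 for Psmb9, 2266 for Bst2, 526 for Ccl5, 3083 for Ccl9, 113 for Il1b, 524 for Lag3, 1719 for Pla2g4a and 6605 for Hpgds. Others were 4155 for Retreg1, 2382 for Hk3, 1997 for Mcm3, 2740.4 for Junb and 87994 for Fth1. The microglia list share of this library, 5.48%, lay beyond the same limit, which restates how it was first seen to differ.

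Further single libraries stood apart. KO naïve 1 was high for the pericyte list (0.0293%), the monocyte list (0.0190%), Nqo1 (412) and Gstt1 (665), and KO naïve 2 was low for Apoc2 (14.5) and high for Mal2 (216). KO IOP 1 was high for the erythroid list (0.0632%) and Hba-a1 (5828) and low for Cd52 (4359), Itgam (31791) and Rpl4 (11432). KO IOP 2 was low for Ccl9 (4077) and high for Smad4 (299). KO IOP 3 was high for Itgax (1686).

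The KO and WT responses differed by the test of the difference itself for 67 of 114 named genes (limma, adjusted p under 0.05), against 9.17% of all genes. That share was raised by how the genes were named, since 99 had passed between the KO groups, which this test contains. The difference is given as KO minus WT in log2. Among cytokine, receptor and signalling genes it was above 0 for Ccr2 (3.62), Il1rn (3.35), Ccl5 (2.91), Ccl9 (2.15), Il1b (1.88), Cd300lf (2.51), Lag3 (3.24), Socs3 (1.33), Syk (2.16), Fgr (1.70), Fcgr1 (1.54), Tlr6 (1.71), Nfkb2 (1.65), Nfkbie (1.40), Itgax (2.68), Itgam (2.48), Itgb3 (2.11), P2rx4 (1.39), P2ry12 (1.59), Mertk (1.58), Tgfbr1 (1.66) and Irf8 (1.35). Among genes of complement, antigen presentation and lysosomes it was above 0 for Cfb (3.17), C1qa (1.61), H2-Oa (2.83), H2-DMb2 (1.85), B2m (1.48), Psme1 (0.97), Cst7 (2.63), Ctss (1.99), Ctsl (1.88), Ctsh (1.45), Psap (1.71), Npc2 (1.65), Becn1 (1.17), Cd52 (1.95) and Tyrobp (1.82). Among metabolic and other genes it was above 0 for Apoc2 (2.00), Abca1 (1.41), Pla2g4a (1.17), Pla2g6 (1.15), Hpgds (1.85), Ptgs2 (7.55), Hk3 (1.55), Hmox1 (1.60), Ftl1 (1.34), Fth1 (1.37), Cox6a2 (2.19), Gm21188 (2.61), Rpl4 (0.86), Cdk1 (1.80) and Bid (1.06). It was below 0 for Cx3cr1 (-3.71), Sncg (-3.09), Stmn2 (-1.62), Gstt1 (-3.44), Smad4 (-1.86), Itgb8 (-3.23), Htt (-1.95), Ubqln2 (-2.46), Pde6g (-1.84), Gngt1 (-2.43), Otx2 (-1.82), Sec1 (-6.15), Gm973 (-6.20), Car12 (-8.08) and Ddx3y (-11.00), the last 4 of which, with Ptgs2, depend on the value added before the logarithm.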

How the results depend on the processing

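Of 99 named genes that passed in KO IOP against KO naïve, between 90 and 99 still passed with other values added before the logarithm, other filters or other scalings, and the count of calls stayed within 1.5 times of 1380. It also did so with the replicate block (1587), with DESeq2 (1856 and 993) and without KO IOP 1 (957). Other settings moved it further. With the rod list as a covariate 3 genes passed, 4 with the compared groups alone, 17 with edgeR on the reads of 21 libraries and 159 without KO IOP 2 and 4 together. Alternatives chosen after seeing the data gave 576 (edgeR on the reads of all 23 libraries) and 5 (the microglia list as a covariate: Cx3cr1, Cst7, Nkd2, Gprc5c and 1700001C19Rik). Leaving out 1 library gave 93 (KO naïve 2) to 3156 (KO naïve 3). Some named genes kept the call in few of these 8 fits. Stmn2, Psmb8, Mertk, Itgb8 and Ms4a7 kept it in 1 and, among others, Psmb9, Nfkb2, Pde6g, Runx1 and Cd44 in 2. DESeq2 called 1856 genes on all libraries (51.3% rose) and 993 without KO IOP 2 and 4 (31.5%), against 65.2% of 1380. The difference between KO and WT responses, 1462 genes, became 134 with the rod list, 103 with the microglia list, 868 without KO IOP 2 and 4 together, and 603 (without WT IOP 1) to 3009 (without KO naïve 3) with 1 library left out. Beyond fewer libraries in the fit, the cause was not tested.

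Direction turned for some named genes. Against KO naïve 3 alone the log2 difference was -0.22 for Mertk, -0.0058 for Retreg1, -0.22 for Tgfbr1, -0.082 for Tgfbr2, -0.072 for Irf8 and 0.23 for Itgb8. With the microglia list as a covariate it was -0.071 for Psmb8, -0.089 for Tgfbr1 and -0.048 for Irf8. Without KO IOP 2 and 4, Hba-a1 gave 0.44 with edgeR and 0.43 with DESeq2. Of 15 named genes that did not pass, 10 changed sign under some alternative, among them Spp1, at 0.95 with all libraries and -1.84 (limma), -2.80 (edgeR) and -2.83 (DESeq2) without KO IOP 2 and 4.

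Deviations from the group means correlated at -0.26 to 0.11 between same-numbered KO IOP and KO naïve libraries, and at -0.17 to 0.27 between libraries of unlike number. So few pairs cannot tell whether same-numbered libraries share more than a number, and the labels do not say. The fit with the replicate block called 1587 genes for KO IOP against KO naïve and 977 for the difference of responses. Low normalized counts limit the falls of Car12, Sec1, Rassf9 and Gm973, where 3 reads equal 2.41 to 3.09 normalized counts.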
